A study of Mus musculus with 6 samples.

Results

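The guidance genes described here were the 67 protein-coding genes of the semaphorin, plexin, neuropilin, ephrin, Eph, Slit, Robo, netrin and Unc5 families that have a count row, out of 46517 genes in the files. They were picked out by gene symbol. The families held 7 class 3 semaphorins, 13 semaphorins of classes 4 to 7, 9 plexins, 2 neuropilins, 14 Eph receptors, 8 ephrins, 3 Slits, 4 Robo receptors, 3 netrins and 4 Unc5 receptors. RNA had been sequenced from renal tubule epithelial cells (RTECs) in primary culture, grown from collagenase-digested kidneys of wild-type FvB mice aged 4 to 6 weeks per the labels. The study's methods give a slightly younger age. There were 3 CTL cultures and 3 cultures given 50 ng/ml TGF-β1, a profibrotic cytokine, for 24 h. All 6 had been grown in medium with 10% serum and 20 ng/ml EGF to 70% confluence and then kept serum-free for 24 h, and the labels name no vehicle for CTL. The cells came from whole kidneys without a sort for tubule cells, and the labels do not say whether the cultures of a group came from separate animals, so the p-values measure the spread between these cultures.

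Guidance molecules were first described as cues that steer growing axons, and the same ligands and receptors control adhesion, cell shape and migration in many epithelia and vessels. Class 3 semaphorins are secreted and act through neuropilins and plexins, whereas most other semaphorins sit in the membrane and bind plexins directly. Ephrins are membrane-bound ligands of the Eph receptor tyrosine kinases, Slits are secreted ligands of Robo receptors, and netrins are laminin-related proteins that bind Dcc, neogenin and the Unc5 receptors. In the developing kidney, Slit2 and Robo2 restrict where the ureteric bud grows out, and several semaphorins, ephrins and netrins are made by tubule cells.

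Between 28313080 and 34183497 reads were counted on genes per library, and 3 counts, the floor used here, lay between 0.0878 and 0.106 CPM, the unit that gives each library the same total. This floor covers counting error only. Replicate 2 stood apart in both groups. Its normalized counts of *Cdh1*, which encodes the epithelial adhesion protein E-cadherin, were 2580.5 for CTL and 2376 for TGF-β1, while the remaining 4 cultures spanned 6565 to 10729.5. The kidney epithelium markers were all detected, with 0 of 7 under 20 normalized counts in every culture. The fibroblast and pericyte markers also had 0 of 7 under 20 in every culture, although *Lum* passed 20 in CTL replicate 3 only. *Col1a1* averaged 26543 in CTL and 34057 in TGF-β1. Of the nephron segment markers, 3 of 7 for proximal tubule were under 20 normalized counts in every culture, among them *Slc34a1* and *Slc5a2*. So were 4 of 6 for thick limb and distal tubule, among them *Slc12a3* and *Kcnj1*, and 5 of 6 for collecting duct, among them *Aqp2*. The proximal tubule markers *Lrp2*, *Aqp1* and *Cubn* were well above that, at means of 2203, 353 and 142 in CTL and 1155, 46.9 and 152 in TGF-β1. The labels number the cultures but do not say that cultures of the same number were paired. In the data, deviations from the group means correlated more within a number than between numbers. The fit with the replicate number as a block is given beside the fit without it where the call of a named guidance gene differed.

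TGF-β1–treated RTECs had less RNA of 10 secreted or membrane-bound guidance ligands and of the receptor gene *Plxnb2*, and more RNA of *Slit1*, *Plxna4* and *Nrp2*. Of the 67 genes, 58 had enough counts to be tested by edgeR's quasi-likelihood test, at an adjusted p-value threshold of 0.05 over all 15862 genes tested. At that threshold 3 were higher (5.17% of the 58, against 5% of all genes tested) and 11 were lower (19.0%, against 6.69% of all genes). The 3 that rose were *Slit1*, *Plxna4* and *Nrp2*. The 11 that fell were *Sema3b*, *Slit2*, *Sema3c*, *Sema4a*, *Ntn4*, *Sema5a*, *Ntn1*, *Sema6a*, *Efna5*, *Sema4b* and *Plxnb2*. In bulk RNA, fewer cells of a type and less RNA per cell cannot be told apart. With the replicate block, 18 were higher (31.0%, against 15.1% of all genes) and 20 were lower (34.5%, against 19.1%). Every TGF-β1 culture lay above every CTL culture for 12 of the 58 (20.7%, against 17.2% of all genes tested) and below for 14 (24.1%, against 18%). The median log2 fold change was -0.03 over the 58 genes and -0.0028 over all genes tested.

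The genes were then sorted by role. Of 12 secreted ligands tested, 1 rose (8.33%) and 5 fell (41.7%), with a median log2 fold change of -0.79, and with the block 2 were higher (16.7%) and 7 lower (58.3%). Of 20 membrane-bound ligands tested, 0 rose and 5 fell (25.0%) in edgeR, with a median of -0.09, and with the block 4 were higher (20.0%) and 6 lower (30.0%). Upward, 3 of these 20 had an unadjusted p under 0.05, and DESeq2 called 2 and limma-voom 0. Of 26 receptors tested, 2 rose (7.69%) and 1 fell (3.85%), with a median of 0.16, and with the block 12 were higher (46.2%) and 7 lower (26.9%). The shares of all genes tested were 5% higher and 6.69% lower without the block and 15.1% and 19.1% with it. No test compared the roles with each other.

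**Figure D1:**
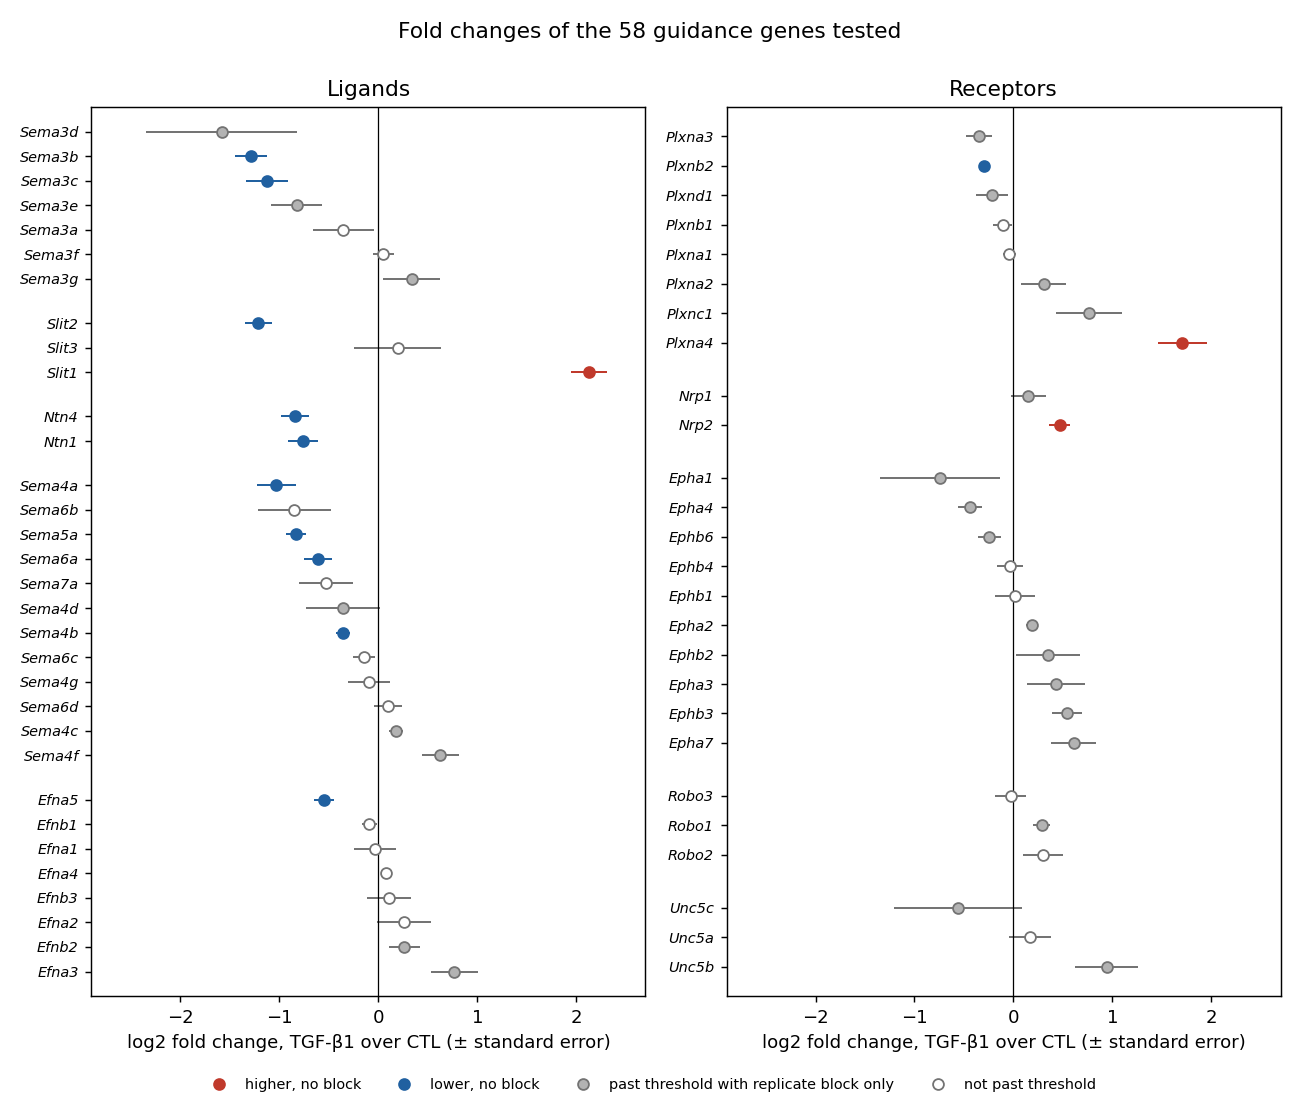
The log2 fold change of TGF-β1 over CTL (x axis, bars are ± 1 standard error) is plotted for each of the 58 guidance genes tested, ligands on the left and receptors on the right. Filled red and blue points are the 3 higher and 11 lower genes of the fit without a block, grey points are the 24 genes past the threshold with the replicate block only, and open points passed neither; the widest bar is that of *Sema3d*.

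Letters before a RefSeq transcription start are shown for the 4 called genes with the largest fold changes among those with a promoter entry. All 4 are ligands that fell. Promoters were taken from RefSeq on GRCm38.p6 as the 250 bases before the transcription start, 5′ to 3′ on the gene's strand, and 58 of the 67 genes had an entry. These starts differ from the gene positions given below, which came from GENCODE M21. By those positions the *Sema3c*, *Sema4a* and *Ntn4* windows lie inside the gene, and the *Slit2* window runs past the gene's start. *Slit1*, *Plxna4* and *Sema3b*, which changed more than the genes shown, had no entry. The letters searched on both strands were GTCTAGAC (a Smad palindrome), TGANTCA (AP-1), GGAATG (TEAD), GTGGGAA (RBPJ, the Notch effector) and TATAAA, the last added after the sequences had been seen. Capitals mark a match. *Sema4a* has 4 entries, and the one with a match is printed.
Slit2 (chr5:47982905-47983154, plus strand): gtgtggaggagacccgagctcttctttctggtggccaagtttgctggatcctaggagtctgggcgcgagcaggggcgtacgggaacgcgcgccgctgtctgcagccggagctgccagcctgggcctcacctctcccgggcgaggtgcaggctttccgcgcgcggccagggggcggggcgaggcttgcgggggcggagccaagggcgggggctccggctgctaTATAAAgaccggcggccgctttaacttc
Sema3c (chr5:17574566-17574815, plus strand): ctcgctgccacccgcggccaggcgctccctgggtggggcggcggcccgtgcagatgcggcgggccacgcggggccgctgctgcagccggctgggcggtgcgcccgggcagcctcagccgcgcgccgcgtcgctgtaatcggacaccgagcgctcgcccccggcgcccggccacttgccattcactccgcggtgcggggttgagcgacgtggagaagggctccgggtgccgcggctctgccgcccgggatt
Sema4a (chr3:88458885-88459134, minus strand): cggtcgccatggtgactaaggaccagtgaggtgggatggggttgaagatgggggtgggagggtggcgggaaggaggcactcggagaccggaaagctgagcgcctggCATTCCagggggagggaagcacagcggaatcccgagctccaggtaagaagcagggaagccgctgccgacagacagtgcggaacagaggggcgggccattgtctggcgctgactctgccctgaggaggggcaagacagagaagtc
Ntn4 (chr10:93640799-93641048, plus strand): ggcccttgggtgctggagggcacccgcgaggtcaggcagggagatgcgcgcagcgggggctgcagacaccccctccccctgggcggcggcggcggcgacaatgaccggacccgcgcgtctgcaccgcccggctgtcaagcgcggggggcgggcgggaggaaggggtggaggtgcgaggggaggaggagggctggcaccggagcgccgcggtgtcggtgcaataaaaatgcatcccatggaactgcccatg

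The *Slit2* window holds TATAAA beginning 28 bases before the start, and the *Sema4a* window holds CATTCC, the reverse complement of GGAATG, at 144 bases before it. No searched letters were found in the *Sema3c* and *Ntn4* windows. Over all 32851 promoters of the same length, 12.4% hold TATAAA, 12.6% GGAATG, 6.75% TGANTCA, 5.42% GTGGGAA and 0.167% GTCTAGAC. Among the 14 entries of called genes these letters occur in 1, 1, 0, 1 and 0, the GTGGGAA match being that of *Plxnb2* at 91 bases before the start. These entries do not stand for all called genes: *Sema4a* has 4, *Sema4b* and *Plxnb2* have 2 each, and *Slit1*, *Plxna4*, *Sema3b*, *Ntn1* and *Sema6a* have none. The 4 windows are rich in G and C, at 69.6%, 78.4%, 64.0% and 73.2% in the order shown, against a median of 52.4% over all promoters. Over the 74 entries of all guidance genes they occur in 2, 7, 3, 3 and 0. A match is a run of letters and not a measured binding site.

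The Slit ligands moved in opposite directions. *Slit2* (ENSMUSG00000031558.14, chromosome 5 from 47983138 to 48307733, plus strand) held 1871, 1956 and 1407 normalized counts in CTL replicates 1, 2 and 3 and 684, 780.0 and 793 in the TGF-β1 replicates. Every treated culture lay below every control, with means of 1744 ± 296 and 752 ± 59.9 (SD, n = 3) and a log2 fold change of -1.21 (standard error 0.14, edgeR adjusted p = 0.00698). *Slit1* (ENSMUSG00000025020.10, chromosome 19 from 41600257 to 41743665, minus strand) was low in CTL, at 20.3, 16.3 and 17.4 normalized counts, and stood at 75.2, 89.1 and 74.2 after TGF-β1. That is a 4.38-fold rise (18 ± 2.03 and 79.5 ± 8.34, SD, n = 3; log2 fold change 2.13, standard error 0.18, edgeR adjusted p = 0.00362), the largest among the 58 genes tested. *Slit3* overlapped between the groups (46.4, 50.0 and 27.3 in CTL, 63.0, 58.0 and 21.6 in TGF-β1) and did not pass the test (log2 fold change 0.19, edgeR adjusted p = 0.816). Both called Slits kept the call when any 1 culture was left out, with adjusted p from 0.00399 to 0.0471 for *Slit2* and from 0.0113 to 0.0306 for *Slit1* (edgeR).

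Per kb of exon, *Slit2* was still the most abundant Slit after treatment, at 68.6 ± 11.6 and 29.6 ± 2.35 normalized counts per kb in CTL and TGF-β1, against 3.04 ± 0.343 and 13.4 ± 1.41 for *Slit1*. The summed Slit level per kb was 78.4 ± 13.7 in CTL and 50.8 ± 4.07 in TGF-β1 (SD, n = 3). *Slit2* made up 87.5% ± 0.611 in CTL and 58.4% ± 6.60 in TGF-β1 of that sum, and *Slit1* 3.96% ± 0.781 in CTL and 26.4% ± 0.909 in TGF-β1. These shares depend on the length used. The exons of *Slit2* sum to 25433 bases and its longest transcript to 9960, against 5921 and 5673 for *Slit1*. Per kb of the longest transcript, the share of *Slit2* would be larger in both groups. The log2 ratio of *Slit1* to *Slit2* per kb was -4.45 ± 0.29 in CTL and -1.13 ± 0.15 in TGF-β1, with no overlap of the 3 cultures of each group.

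Among the class 3 semaphorins, the secreted ligands of the neuropilin and plexin-A receptors, 2 of 7 fell (28.6%) and 0 rose in edgeR. The median log2 fold change of the 7 was -0.82. Over all genes tested, 6.69% fell and 5% rose. With the block 4 of the 7 were lower (57.1%, against 19.1% of all genes) and 1 higher (14.3%, against 15.1%). Upward, 0 had an unadjusted p under 0.05 and 0 were called by DESeq2 or limma-voom. *Sema3b* (ENSMUSG00000057969.14, chromosome 9 from 107597674 to 107609229, minus strand) held 859, 1056 and 697 normalized counts in CTL and 331, 356 and 382 in TGF-β1. All treated cultures sat close together below the controls, with a log2 fold change of -1.29 (standard error 0.16, edgeR adjusted p = 0.00867). *Sema3c* (ENSMUSG00000028780.12, chromosome 5 from 17574281 to 17730268, plus strand) went from 7530.1, 8561 and 5624 to 2819.5, 4209.6 and 2933, with means of 7238 ± 1489.8 and 3321 ± 772 (SD, n = 3) and a log2 fold change of -1.12 (standard error 0.21, edgeR adjusted p = 0.0276). Replicate 2 was the highest culture of *Sema3c* in both groups, but its treated value still lay below all 3 controls. The edgeR adjusted p ranged over 0.00706 to 0.0526 for *Sema3b* and over 0.0237 to 0.112 for *Sema3c* when each culture was left out, the highest without TGF-β1 replicate 1 for *Sema3b* and without CTL replicate 1 for *Sema3c*.

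*Sema3e* (chromosome 5, 14025276 to 14256689), which binds Plxnd1 without a neuropilin, held 1078, 1202 and 1122 normalized counts in CTL and 459, 922 and 543 in TGF-β1. The groups did not overlap, yet it passed only with the block (log2 fold change -0.82, edgeR adjusted p = 0.0967 without and 0.0105 with the block). With the block but without the cultures numbered 1, 2 or 3 in turn, its adjusted p ranged from 9.98e-06 to 0.320 (edgeR). *Sema3f* (chromosome 9, 107681500 to 107710475), a ligand of Nrp2, was the most abundant class 3 semaphorin per kb over the 6 cultures and did not pass the test, at 4701, 4243 and 4419 in CTL and 5183, 3932 and 4705 in TGF-β1 (log2 fold change 0.05, edgeR adjusted p = 0.806). *Sema3d* overlapped widely, at 828, 2686 and 475 in CTL and 305, 788 and 241 in TGF-β1, with replicate 2 far above the others in each group. Within every pair of same-numbered cultures *Sema3d* was lower after treatment, by log2 ratios of -1.44, -1.77 and -0.98 for numbers 1, 2 and 3 (edgeR adjusted p = 0.237 without and 0.000741 with the block). *Sema3g* passed upward with the block only (log2 fold change 0.33, edgeR adjusted p = 0.0125), and *Sema3a* passed in neither fit.

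The summed level of the class 3 semaphorins per kb was 2447, 2827 and 2070.4 in the CTL cultures and 1650.0, 1797 and 1589 in the TGF-β1 cultures, so the groups did not overlap. *Sema3c* held 41.2% ± 2.74 in CTL and 27.5% ± 4.67 in TGF-β1 of this sum and *Sema3f* 35.6% ± 6.20 in CTL and 53.2% ± 9.75 in TGF-β1. The leading class 3 semaphorin was thus *Sema3c* in the CTL means and *Sema3f* in the TGF-β1 means, with log2 ratios of *Sema3c* to *Sema3f* per kb of 0.22 ± 0.33 in CTL and -0.95 ± 0.52 in TGF-β1. Counted over the longest transcript in place of all exons, *Sema3f* was again the highest over the 6 cultures, and by raw count without length *Sema3c* was.

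**Figure D2:**
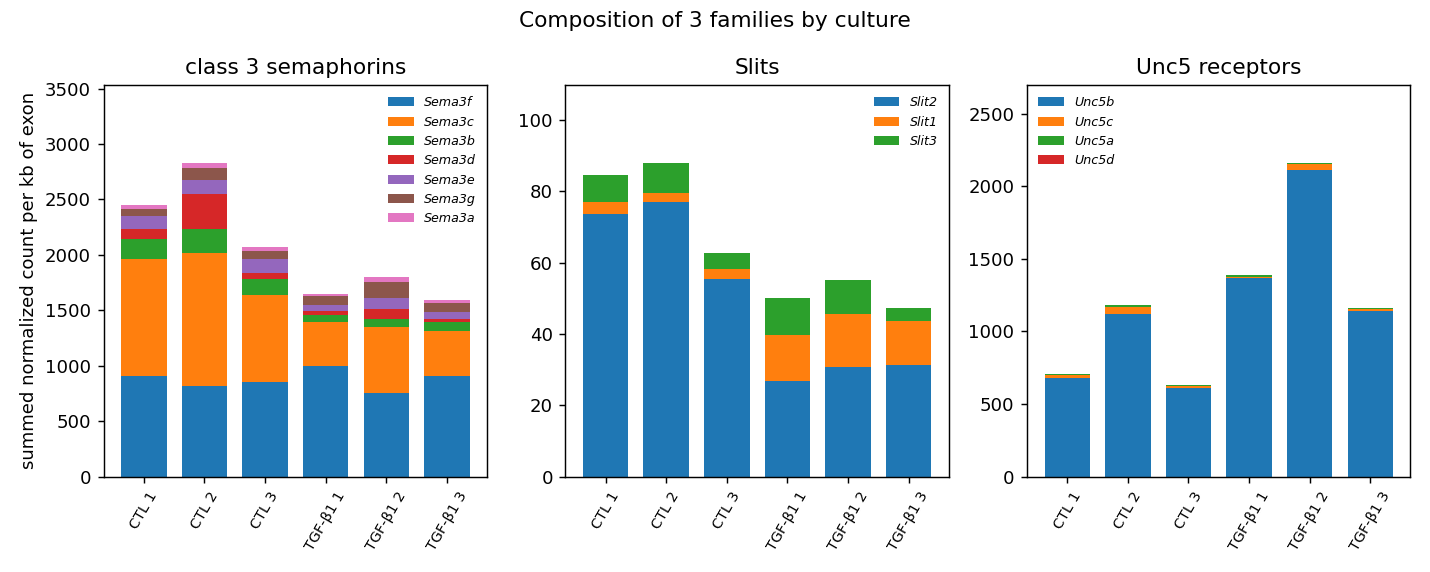
Each bar is 1 culture, and its colored segments are the normalized counts per kb of exon (y axis) of the class 3 semaphorins, Slits and Unc5 receptors, stacked by gene. The *Sema3c* and *Slit2* segments are shorter in all 3 TGF-β1 bars than in any CTL bar, the *Slit1* segment is taller, and *Unc5b* fills 95.8% of the Unc5 sum in CTL and 98.2% in TGF-β1.

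Both netrins that could be tested fell. *Ntn4* (ENSMUSG00000020019.4, chromosome 10 from 93640681 to 93747207, plus strand), a laminin-binding netrin of basement membranes, held 3860.2, 3840.0 and 3299.5 normalized counts in CTL and 2325, 2168 and 1637 in TGF-β1 (log2 fold change -0.84, standard error 0.14, edgeR adjusted p = 0.0198). *Ntn1* (ENSMUSG00000020902.11, chromosome 11 from 68209364 to 68400823, minus strand), the founding netrin and the ligand of the Unc5 receptors, held 2792, 2436 and 3102 in CTL and 1659.6, 1344 and 1907 in TGF-β1 (log2 fold change -0.76, standard error 0.15, edgeR adjusted p = 0.0290). In each gene all treated cultures lay below all controls. The order of replicates differed: replicate 3 was the lowest for *Ntn4* and the highest for *Ntn1* in both groups. The summed netrin level per kb was 1424 ± 52.5 in CTL and 808 ± 72.8 in TGF-β1 (SD, n = 3), and the log2 ratio of *Ntn4* to *Ntn1* per kb was 1.15 ± 0.29 in CTL and 1.07 ± 0.48 in TGF-β1, which overlapped. *Ntn5* had at most 9 counts and was not tested. When each culture was left out, the edgeR adjusted p ranged over 0.0205 to 0.0911 for *Ntn4* and 0.0354 to 0.116 for *Ntn1*, both highest without CTL replicate 1.

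**Figure D3:**
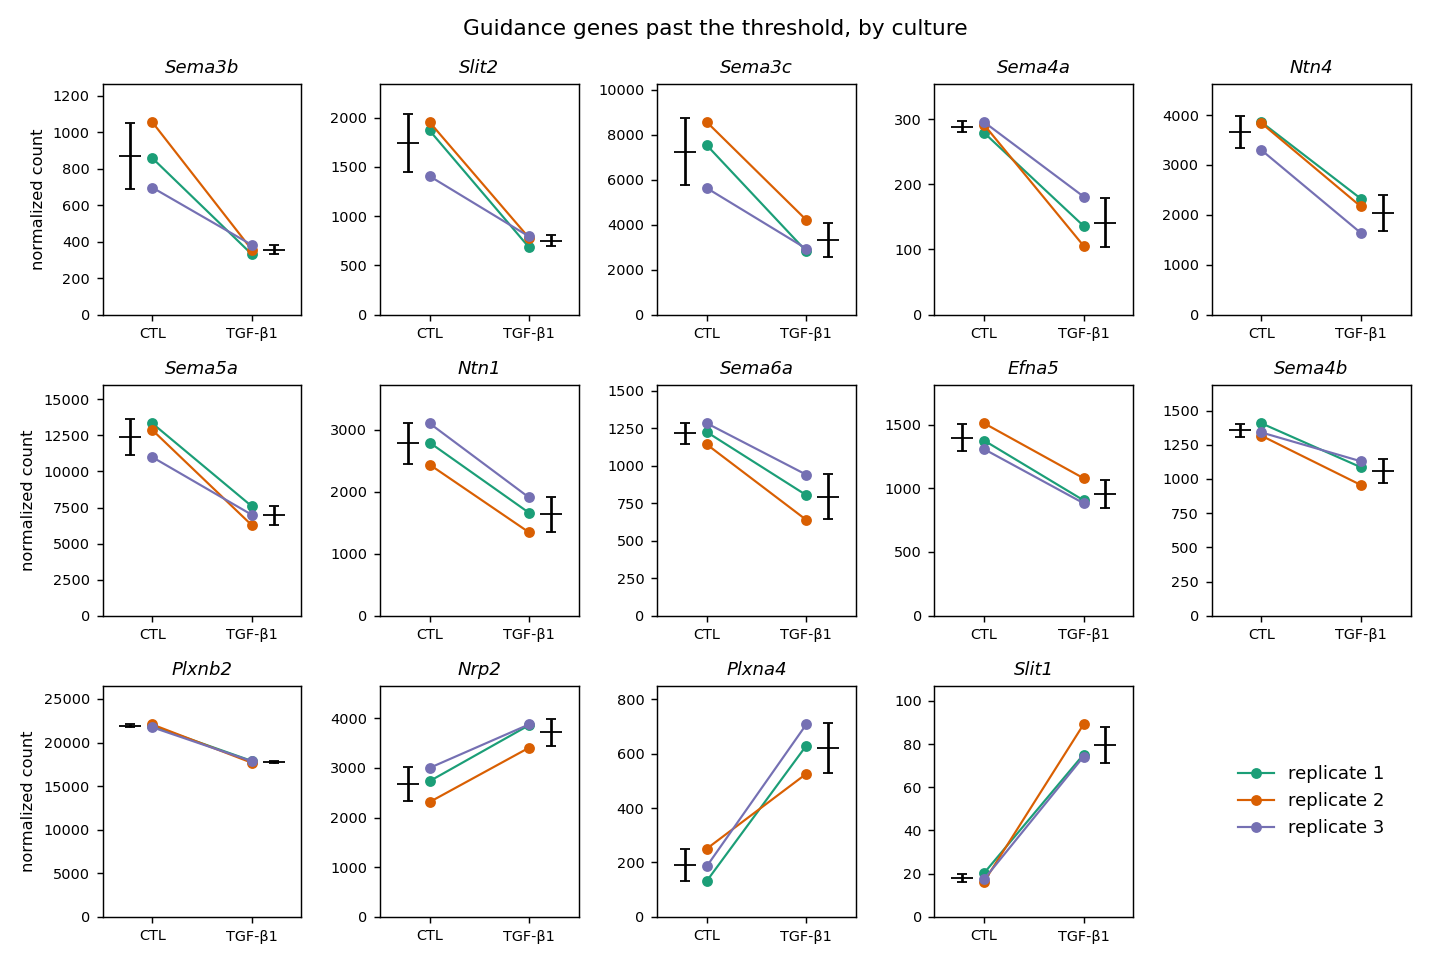
Normalized counts (y axis, from 0) of the 14 guidance genes past the threshold are plotted for the CTL and TGF-β1 cultures, with a line joining cultures of the same replicate number and black bars for the mean ± SD (n = 3). No gene's groups overlap; the 11 lower genes are ordered from *Sema3b* to *Plxnb2* and the 3 higher genes end with *Slit1*, at 18 in CTL and 79.5 in TGF-β1.

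The semaphorins of classes 4 to 7 span the membrane, apart from the lipid-anchored Sema7a. Of 12 tested, 4 fell (33.3%, against 6.69% of all genes tested) and 0 rose (against 5%) in edgeR. With the block 5 were lower (41.7%, against 19.1%) and 2 higher (16.7%, against 15.1%). Upward, 2 had an unadjusted p under 0.05, DESeq2 called 1 (*Sema4f*) and limma-voom 0. *Sema5a* (ENSMUSG00000022231.9, chromosome 15 from 32244810 to 32696341, plus strand), a semaphorin with thrombospondin repeats, held 13341, 12878 and 10996 normalized counts in CTL and 7594, 6282 and 6999.8 in TGF-β1. Per kb of exon it was the highest of these genes in the CTL mean (664, against 590.4 for *Sema7a*) and below *Sema7a* in the TGF-β1 mean (372 against 409.7). The exons of *Sema5a* sum to 18686 bases and its longest transcript to 10809, against 3298 and 3297 for *Sema7a*. Per kb of the longest transcript, *Sema5a* would stand above *Sema7a* in both means. The log2 fold change of *Sema5a* was -0.83 (standard error 0.10, edgeR adjusted p = 0.00833). When each culture was left out, the edgeR adjusted p ranged from 0.010 to 0.0466. *Sema4a* (ENSMUSG00000028064.16, chromosome 3 from 88435959 to 88461182, minus strand) was nearly level across the controls, at 279, 291 and 295, and held 136, 106 and 181 in TGF-β1. This is 2.04-fold less (log2 fold change -1.03, standard error 0.20, edgeR adjusted p = 0.0259). *Sema6a* (ENSMUSG00000019647.15, chromosome 18 from 47235598 to 47368870, minus strand), a ligand of Plxna2 and Plxna4, held 1225, 1142 and 1283 and 804, 639 and 941 (log2 fold change -0.61, standard error 0.14, edgeR adjusted p = 0.0425). *Sema4b* (ENSMUSG00000030539.12, chromosome 7 from 80186841 to 80226527, plus strand) held 1407, 1316 and 1340.1 and 1086, 956 and 1129 (log2 fold change -0.36, standard error 0.08, edgeR adjusted p = 0.0337). In all 4 genes the groups did not overlap. Apart from *Sema5a*, they lost the call in 4 of 6 fits without 1 culture, with edgeR adjusted p up to 0.105 for *Sema4a*, 0.154 for *Sema6a* and 0.149 for *Sema4b*.

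A pair of class 4 semaphorins was higher with the block only. *Sema4f* (chromosome 6, 82911885 to 82939769) held 413, 332 and 482 in CTL and 667, 502 and 725 in TGF-β1 (log2 fold change 0.63, edgeR adjusted p = 0.0834 without and 0.000327 with the block). *Sema4c* (chromosome 1, 36548639 to 36558349), a ligand of Plxnb2, held 1257, 1133 and 1124 and 1411, 1317 and 1259 (log2 fold change 0.18, edgeR adjusted p = 0.155 and 0.0212). Neither gene's groups overlapped, although the lowest treated *Sema4c* culture was close to the highest control. Of the exons of *Sema4c*, 7.27% overlap a transcript on the opposite strand, and whether the counting used strand is not given in the sources used here. *Sema4d*, the ligand of Plxnb1, overlapped between groups but was lower in each same-numbered pair, by log2 ratios of -0.33, -0.29 and -0.41 (edgeR adjusted p = 0.581 without and 0.000784 with the block). *Sema7a*, *Sema6b*, *Sema6c*, *Sema6d* and *Sema4g* passed in neither fit, with log2 fold changes from -0.85 to 0.10.

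Of the 8 ephrins, 1 fell (12.5%, against 6.69% of all genes tested) and 0 rose (against 5%) in edgeR. With the block 2 were higher (25.0%, against 15.1%) and 1 lower (12.5%, against 19.1%). Upward, 1 (*Efna3*) had an unadjusted p under 0.05 and was called by DESeq2, and limma-voom called 0. *Efna5* (ENSMUSG00000048915.11, chromosome 17 from 62604184 to 62881317, minus strand), a lipid-anchored ligand of the EphA receptors, held 1375, 1510.4 and 1307 normalized counts in CTL and 906, 1079 and 883 in TGF-β1. The groups did not overlap and replicate 2 was the highest culture of both (log2 fold change -0.55, standard error 0.10, edgeR adjusted p = 0.0216; 0.0159 to 0.0959 when each culture was left out, highest without TGF-β1 replicate 1). *Efna3* (chromosome 3, 89313899 to 89322965) held 256, 334 and 194 and 435, 542 and 361, and passed upward with the block only (log2 fold change 0.77, edgeR adjusted p = 0.0904 without and 0.000278 with the block). Of its exons, 14.1% overlap an antisense gene. *Efnb1* (chromosome X, 99136130 to 99148991), a membrane-spanning ligand of EphB receptors, was the most abundant ephrin per kb of exon and passed in neither fit, at 4265, 4946 and 4268 and 4278, 4401 and 3966 (log2 fold change -0.09, edgeR adjusted p = 0.485). *Efnb2*, next in level, and above *Efnb1* by raw count and per kb of the longest transcript, overlapped between groups and was higher with the block (log2 fold change 0.25, edgeR adjusted p = 0.00492). The log2 ratio of *Efnb2* to *Efnb1* per kb was -0.35 ± 0.06 in CTL and -0.01 ± 0.21 in TGF-β1. The summed ephrin level per kb was 3852 ± 237 in CTL and 3967 ± 240.0 in TGF-β1 (SD, n = 3).

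Among the receptors, the plexins bind semaphorins and act on small GTPases inside the cell. *Plxna4* (ENSMUSG00000029765.12, chromosome 6 from 32144268 to 32588192, minus strand), a receptor of class 6 semaphorins and, with neuropilin, of Sema3a, held 132, 251 and 186 normalized counts in CTL and 629.7, 526 and 708 in TGF-β1. This was a 3.27-fold rise with no overlap (log2 fold change 1.71, standard error 0.25, edgeR adjusted p = 0.0128; 0.0134 to 0.0596 when each culture was left out). The only one of those 6 fits that lost it left out TGF-β1 replicate 1, and the block fit without the cultures numbered 3 gave an adjusted p of 0.206. Its level remained low among plexins, at 13.5 ± 4.21 and 44.1 ± 6.46 normalized counts per kb in CTL and TGF-β1, against 1814 ± 72.7 and 1763 ± 95.2 for *Plxna1*, which did not pass in either fit. *Plxnb2* (ENSMUSG00000036606.15, chromosome 15 from 89155549 to 89180788, minus strand), a class 4 semaphorin receptor and the most abundant plexin, varied little within either group, at 21912, 22078 and 21756 in CTL and 17892, 17687 and 17860.1 in TGF-β1. It fell by a small margin (log2 fold change -0.30, standard error 0.05, edgeR adjusted p = 0.0165; 0.0357 to 0.100 when each culture was left out).

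With the block, *Plxna2* and *Plxnc1* were also higher and *Plxna3* and *Plxnd1* lower, all with overlapping groups, at block log2 fold changes of 0.29, 0.76, -0.34 and -0.20 (edgeR adjusted p = 0.00398, 0.0479, 0.0166 and 0.0424). *Plxnc1* rested on 18.3, 21.2 and 17.4 and 30.5, 46.6 and 20.7 normalized counts. The summed plexin level per kb was 5897 ± 106 in CTL and 5279.9 ± 83.1 in TGF-β1 (SD, n = 3), and *Plxnb2* made up 48.1% ± 0.554 in CTL and 43.7% ± 0.611 in TGF-β1 of it.

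The neuropilins are co-receptors of class 3 semaphorins and of vascular endothelial growth factors. *Nrp2* (ENSMUSG00000025969.14, chromosome 1 from 62703285 to 62818695, plus strand), the partner of Sema3f, held 2733, 2312 and 2999.7 in CTL and 3859.6, 3406 and 3875 in TGF-β1, and it rose (log2 fold change 0.47, standard error 0.11, edgeR adjusted p = 0.0406). It kept the call in 1 of the 6 fits without 1 culture, with edgeR adjusted p of 0.0371 to 0.147, and lost it under scaling by library size only, where its adjusted p was 0.0691. *Nrp1* (chromosome 8, 128358604 to 128503363) was the more abundant at 18998, 23555 and 16592 and 20211, 26372 and 19086, with replicate 2 the highest culture of each group, and passed with the block only (log2 fold change 0.15, edgeR adjusted p = 0.624 without and 0.0445 with the block). Its groups overlapped. Per kb, the log2 ratio of *Nrp1* to *Nrp2* was 3.15 ± 0.45 in CTL and 2.82 ± 0.35 in TGF-β1, which overlapped.

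Of the 10 Eph receptors tested, 0 passed in edgeR without the block, against 5% higher and 6.69% lower of all genes tested. With the block 5 were higher (50.0%, against 15.1%) and 3 lower (30.0%, against 19.1%). Without the block, 3 upward and 1 downward had an unadjusted p under 0.05, DESeq2 called the same numbers, and limma-voom called 0. *Epha2* (chromosome 4, 141301240 to 141329384), a receptor abundant in epithelia, led the family at 9829, 9653 and 9945 normalized counts in CTL and 11180.5, 11831 and 10514 in TGF-β1. The groups were apart by little (log2 fold change 0.19, edgeR adjusted p = 0.0937 without and 0.0273 with the block). *Ephb3* (chromosome 16, 21204755 to 21223305) held 651, 777 and 619 and 874, 1198 and 912 (log2 fold change 0.54, edgeR adjusted p = 0.0679 and 0.000443). *Epha7* (chromosome 4, 28813131 to 28967499) held 1656, 2061 and 1110.0 and 2622, 2630.0 and 2109.5 (log2 fold change 0.61, edgeR adjusted p = 0.145 and 0.00504). In these 3 genes every treated culture lay above every control. *Epha4* (chromosome 1, 77367185 to 77515088), which binds ephrins of both classes, lay below, at 3142, 3059 and 3017 and 2576, 1849 and 2387 (log2 fold change -0.44, edgeR adjusted p = 0.0701 without and 0.00768 with the block).

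*Ephb2* and *Epha3* were higher and *Epha1* and *Ephb6* lower with the block, and their groups overlapped. The widest spread was that of *Epha1*, at 831, 291 and 1289 in CTL and 508, 233 and 700.4 in TGF-β1, where replicate 2 was the lowest culture of both groups. Its same-numbered log2 ratios were -0.71, -0.32 and -0.88 (edgeR adjusted p = 0.481 without and 0.00171 with the block), and 6.01% of its exons overlap *Zyx* on the opposite strand. *Ephb4* and *Ephb1* passed in neither fit. The summed Eph level per kb was 4872 ± 196 in CTL and 5029 ± 133 in TGF-β1 (SD, n = 3), of which *Epha2* made up 43.1% ± 1.14 in CTL and 47.6% ± 3.63 in TGF-β1.

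Of the Robo receptors of Slits, *Robo1* (chromosome 16, 72308306 to 73046095) was the most abundant, at 1713, 1720.0 and 2097 normalized counts in CTL and 2206, 2267 and 2274 in TGF-β1. All treated cultures lay above all controls, and it passed with the block only (log2 fold change 0.29, edgeR adjusted p = 0.0862 without and 0.00837 with the block). *Robo2* held 80.2, 94.2 and 86.1 and 83.3, 133 and 105, *Robo3* held 62.8, 67.3 and 55.6 and 57.9, 67.3 and 57.3, and neither passed in either fit. *Robo4*, known from endothelium, had at most 4 counts and was not tested.

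Among the Unc5 receptors, *Unc5b* (chromosome 10, 60762593 to 60831581), a netrin receptor, held 4247, 6989 and 3801 normalized counts in CTL and 8542, 13224 and 7152 in TGF-β1. The groups did not overlap, the lowest treated culture being only just above the highest control, and the same-numbered log2 ratios were 1.01, 0.92 and 0.91. Without the block it did not pass (log2 fold change 0.94, standard error 0.32, edgeR adjusted p = 0.114). With it, the adjusted p was 6.69e-06, the smallest of the 58 guidance genes, and it ranged from 4.57e-16 to 0.000410 when the cultures of 1 number were also left out (edgeR). *Unc5c* went the other way within each pair, at 362, 1036 and 317 in CTL and 241, 707 and 218 in TGF-β1, with log2 ratios of -0.59, -0.55 and -0.54 (edgeR adjusted p = 0.626 without and 0.000666 with the block). The log2 ratio of *Unc5b* to *Unc5c* per kb was 4.91 ± 0.47 in CTL and 6.41 ± 0.50 in TGF-β1, with no overlap of the groups. *Unc5a* passed in neither fit.

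Levels of different genes were compared as normalized counts per kb of exon. Of the 58 genes, *Plxnb2* was the highest in CTL, at 2839 ± 20.9 per kb of exon, followed by *Epha2*, *Nrp1* and *Plxna1*. This order depends on the length used. The exons of *Nrp1* sum to 9785 bases and its longest transcript to 3645, against 7720 and 6497 for *Plxnb2*. Per kb of the longest transcript, *Nrp1* would stand above *Plxnb2* in CTL. Within families the leading gene stood clear of the next, with no overlap over the 6 cultures, for *Plxnb2* over *Plxna1*, *Epha2* over *Ephb4*, *Nrp1* over *Nrp2*, *Slit2* over *Slit1*, *Robo1* over *Robo3* and *Unc5b* over *Unc5c*. The ranges overlapped for *Efnb1* and *Efnb2*, *Sema3f* and *Sema3c*, *Sema5a* and *Sema7a*, and *Ntn4* and *Ntn1*. *Ntn4* was above *Ntn1* within all 6 cultures, *Efnb1* above *Efnb2* in 5 of 6, *Sema3f* above *Sema3c* in 4 of 6 and *Sema5a* above *Sema7a* in 2 of 6. The 9 genes left untested were *Epha5*, *Epha6*, *Epha8*, *Epha10*, *Ntn5*, *Plxnb3*, *Robo4*, *Sema5b* and *Unc5d*. Their highest raw counts in any culture were 4, 1, 3, 1, 9, 2, 4, 5 and 15, in that order, and they were under the count filter but entered the fit with no filter beyond 1 count.

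**Figure D4:**
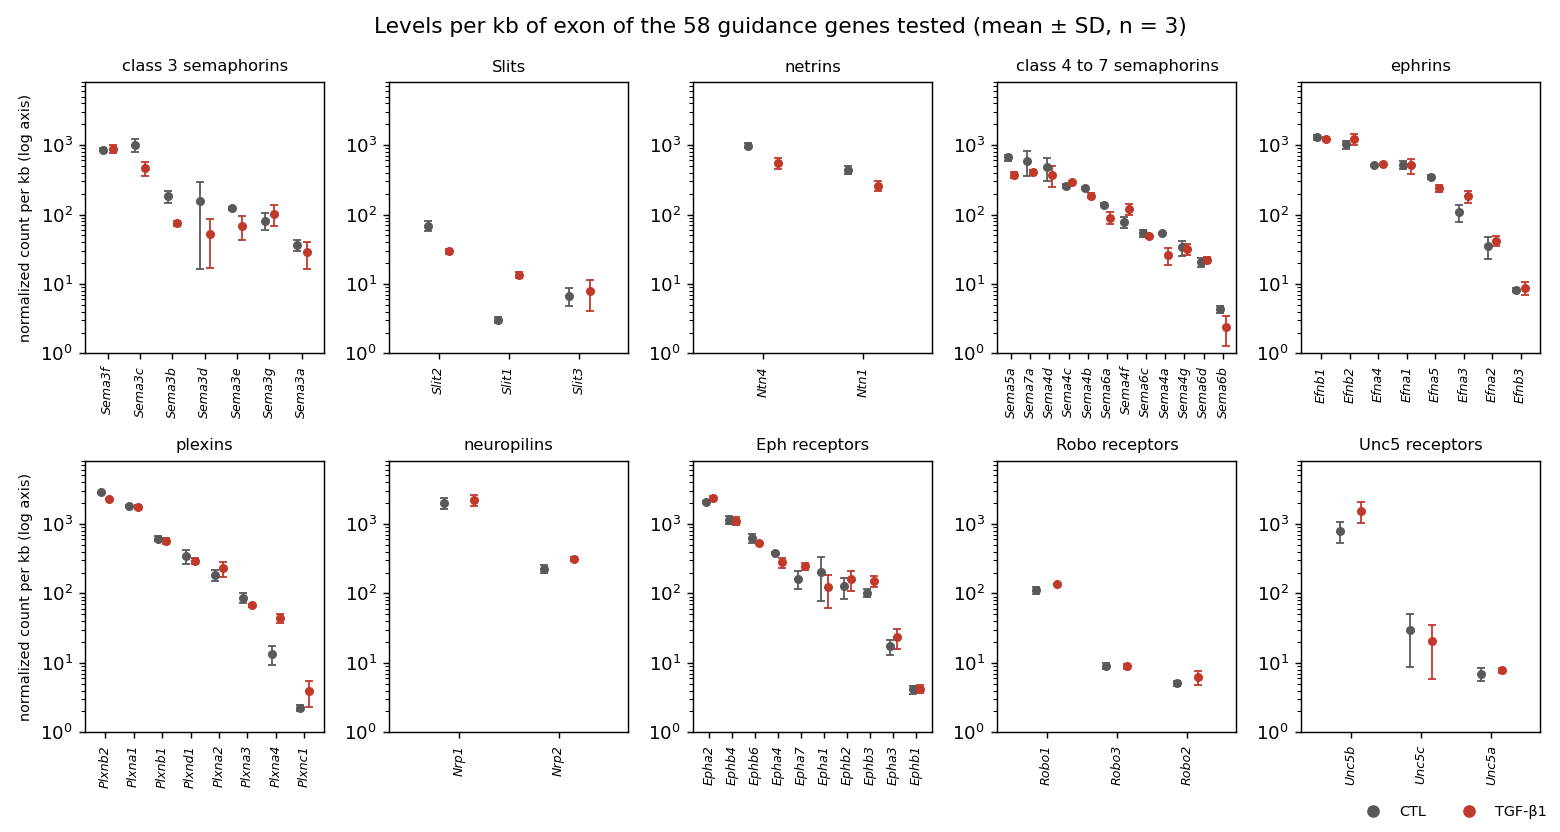
Mean normalized counts per kb of exon (log y axis, bars are ± SD, n = 3 cultures) are shown for the 58 tested genes by family, CTL in grey and TGF-β1 in red, ordered by level within each panel. The leading genes of the plexin, neuropilin and Eph panels are the highest levels, with *Plxnb2* at 2839 in CTL, while *Slit2* leads the Slits at 68.6 in CTL and 29.6 in TGF-β1.

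Some guidance genes differed between replicate numbers in the same direction in both groups. The difference of replicate 2 from the mean of replicates 1 and 3, on the log2 scale, was 2.04 in CTL and 1.53 in TGF-β1 for *Sema3d*, 1.61 in CTL and 1.62 in TGF-β1 for *Unc5c* and 0.80 in CTL and 0.75 in TGF-β1 for *Unc5b*. It was -1.86 in CTL and -1.37 in TGF-β1 for *Epha1* and -1.01 in CTL and -0.93 in TGF-β1 for *Sema4d*. The first 3 were thus high and the last 2 low in replicate 2 of both groups, and they were named after these values had been seen. In the same direction as the low genes, this difference was -1.80 in CTL and -1.71 in TGF-β1 for *Cdh1*, -1.87 in CTL and -2.00 in TGF-β1 for *Epcam*, -1.89 in CTL and -1.24 in TGF-β1 for *Krt8* and -1.69 in CTL and -1.14 in TGF-β1 for *Krt18*, 4 of the 7 kidney epithelium markers. The other 3 lay closer to 0, at -0.09 in CTL and -0.57 in TGF-β1 for *Cdh16*, 0.09 in CTL and -0.15 in TGF-β1 for *Pax8* and 0.09 in CTL and -0.13 in TGF-β1 for *Pax2*. Among the tested fibroblast and pericyte markers it was 1.48 in CTL and 1.40 in TGF-β1 for the collagen gene *Col1a1*, 1.42 in CTL and 1.24 in TGF-β1 for *Pdgfrb*, 0.90 in CTL and 1.42 in TGF-β1 for *Col1a2* and 1.52 in CTL and 2.37 in TGF-β1 for *Dcn*, but -1.81 in CTL and -2.05 in TGF-β1 for *Thy1* and -0.44 in CTL and -1.43 in TGF-β1 for *Pdgfra*. Summed normalized counts of the 7 kidney epithelium markers ranged over 33558 to 83499 in CTL and 28998 to 69183 in TGF-β1, and those of the 7 fibroblast and pericyte markers over 26727 to 68392 and 29978 to 92338. With the block only, *Pdgfrb* and *Dcn* were lower and *Col1a1* and *Col1a2* higher (edgeR adjusted p = 0.000431, 0.0256, 0.00628 and 0.0145), and *Cdh1* and *Epcam* were lower (0.0194 and 0.0376). The part of these markers in the guidance genes' values was not tested. Without both replicate 2 cultures, all 14 called genes kept their calls in the fit without a block, and 8 were higher and 15 lower in all.

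**Figure D5:**
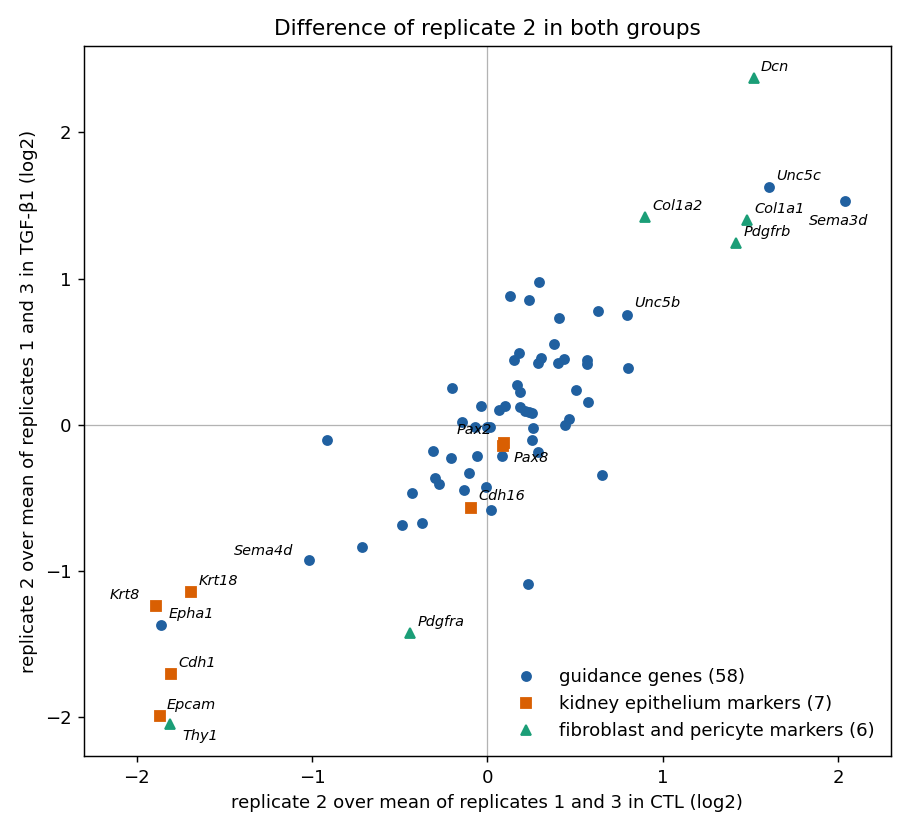
For each of the 58 tested guidance genes (blue), and for the tested kidney epithelium (orange) and fibroblast and pericyte (green) markers, the log2 difference of replicate 2 from the mean of replicates 1 and 3 is plotted in CTL (x axis) and TGF-β1 (y axis). *Sema3d*, *Unc5c* and *Unc5b* lie at the upper right with *Col1a1* and *Pdgfrb*, and *Epha1* and *Sema4d* at the lower left with *Cdh1*, *Epcam* and *Thy1*.

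Markers of other cell types were read beside the guidance genes. Of 8 endothelial markers, 5 were under 20 normalized counts in every culture, among them *Pecam1* and *Cdh5*, and the sum of the 8 was 86.1 to 149 in CTL and 62.0 to 120.2 in TGF-β1. Of 7 leukocyte markers, *Cd3e* and *Cd79a* were at or near 0, and the sum was 210.4 to 296 in CTL and 135 to 258 in TGF-β1. Of the 5 tested, *Csf1r* alone was lower (log2 fold change -1.32, edgeR adjusted p = 0.0238). *Ptprc*, *Cd68*, *Adgre1* and *Itgam* passed in neither fit, at log2 fold changes of -0.66, 0.19, 0.11 and 0.12. Among podocyte markers, *Nphs1*, which encodes the slit diaphragm protein nephrin, was under 20 in every culture, while *Synpo* held 14552, 17137 and 11826 in CTL and 11234, 9811 and 9328 in TGF-β1 and passed downward with the block only (edgeR adjusted p = 0.0739 without and 0.00662 with the block). The 6 thick limb and distal tubule markers summed to 45.2 to 119 in CTL and 47.6 to 65.0 in TGF-β1, and the 6 collecting duct markers to 23.1 to 45.8 and 9.32 to 23.4. Among Schwann cell and nerve markers, *S100b* was under 20 in every culture, and the neuronal tubulin gene *Tubb3* rose from 441, 440.3 and 346 to 1202, 1267 and 827 (log2 fold change 1.42, edgeR adjusted p = 0.0108). Of the 7 kidney epithelium markers 2 fell, *Cdh16* and *Pax8*, and of 4 tested proximal tubule markers 2 fell, *Lrp2* and *Aqp1*, at log2 fold changes of -1.50, -0.77, -0.93 and -2.91 (edgeR adjusted p = 0.00922, 0.00436, 0.0165 and 0.00919). With the block 5 and 3 were lower. *Krt8*, *Krt18* and *Cubn* passed in neither fit, at log2 fold changes of 0.06, 0.12 and 0.09. The 7 proximal tubule markers, 3 of them under 20 in every culture, summed to 2458 to 2963 in CTL and 1131 to 1569 in TGF-β1. The part of any of these markers in the fall of the ligands was not tested.

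The other genes of these pathways, a list of 69 co-receptors, effectors and regulators, were tested in the same fits. Of 62 tested, 5 rose (8.06%, against 5% of all genes tested) and 3 fell (4.84%, against 6.69%), and with the block 19 were higher (30.6%, against 15.1%) and 22 lower (35.5%, against 19.1%). Those that fell were *L1cam*, which encodes a cell adhesion protein that partners neuropilin-1, *Met*, the hepatocyte growth factor receptor that associates with plexin-B proteins, and *Dag1*, which encodes the Slit-binding dystroglycan. *L1cam* held 5088, 3878 and 4032 normalized counts in CTL and 2027, 1342 and 1869 in TGF-β1 (log2 fold change -1.31, edgeR adjusted p = 0.0121). *Met* held 10061, 8747 and 8941 and 5052, 3686 and 5022 (log2 fold change -1.01, edgeR adjusted p = 0.0107), and *Dag1* 37966, 48795 and 28649 and 16122, 15444 and 15696 (log2 fold change -1.29, edgeR adjusted p = 0.0132). Those that rose were *Gpc1*, a heparan sulfate proteoglycan that binds Slit, the Robo-linked *Myo9b* and *Usp33*, the exchange factor gene *Vav2* and the kinase gene *Fyn*. Their log2 fold changes were 0.55, 0.30, 0.20, 0.30 and 0.30 (edgeR adjusted p = 0.0168, 0.0210, 0.0323, 0.0472 and 0.0482).

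By pathway, the Slit–Robo partners had 3 higher (20.0%) and 1 lower (6.67%) of 15 tested in edgeR. The semaphorin partners had 1 higher (4.55%) and 2 lower (9.09%) of 22. The Eph partners had 1 higher (7.14%) and 0 lower of 14 (downward, 2 had an unadjusted p under 0.05, and DESeq2 and limma-voom called 0). The netrin partners had 0 and 0 of 11 in edgeR. Over all genes tested, 5% were higher and 6.69% lower. Of the netrin partners, 1 upward and 3 downward had an unadjusted p under 0.05, DESeq2 called 0 and 3, and limma-voom 0 and 0. With the block 2 netrin partners were higher (18.2%) and 7 lower (63.6%). With the block the Slit–Robo partners had 7 higher (46.7%) and 3 lower (20.0%). The semaphorin partners had 5 (22.7%) and 8 (36.4%), and the Eph partners 5 (35.7%) and 4 (28.6%). Over all genes tested, the block gave 15.1% higher and 19.1% lower. The netrin receptor genes differed in level: *Neo1*, encoding neogenin, held 5296, 5189 and 5325 normalized counts in CTL and 5526, 5041 and 5701 in TGF-β1 and did not pass (edgeR adjusted p = 0.687). *Dcc* held at most 16.6 in any culture and was not tested. *Flrt2*, which encodes an Unc5 ligand, followed *Unc5b* in being high in replicate 2, at 2189, 4601 and 1974 and 4150.0, 12030.1 and 3973, and passed upward with the block only (edgeR adjusted p = 0.219 without and 0.000227 with the block); it was named after its values had been seen. The median log2 fold change of the 62 was -0.03.

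Calls of single genes depended on the cultures that entered the fit. Of the 14 called genes, *Slit1*, *Slit2* and *Sema5a* were called in all 6 fits that left out 1 culture, and the other 11 were lost in at least 1 of them. The fit without CTL replicate 1 kept 5 of the 14, without CTL replicate 2 6, without CTL replicate 3 10, without TGF-β1 replicate 1 3, without TGF-β1 replicate 2 13 and without TGF-β1 replicate 3 10. Without both replicate 1 cultures and with no block, 0 of 14 were kept in edgeR, while all 14 had an unadjusted p under 0.05, as had 1938 of all genes tested. In the block fits without the cultures numbered 1, 2 or 3, 13, 14 and 13 were kept, *Plxnb2* and *Plxna4* being the ones lost. Of the 10 genes that passed with the block only and did not overlap, 6 kept the call in all 3 block fits that left out 1 number. *Epha2* kept it in 1, and *Robo1*, *Sema3e* and *Sema4c* in 2, with edgeR adjusted p up to 0.209, 0.101, 0.320 and 0.168.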

How the data were processed

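The authors trimmed single-end 50-bp reads with Trim Galore, aligned them to GRCm38 with STAR 2.4.1d and counted them on genes with HTSeq 0.6.1; the deposited values are these whole read counts, without normalization. Reads aligning to more than 1 place (18.7 to 19.4% of the reads in the files) or to more than 1 gene (1.88 to 1.97%) and reads on no gene (4.16 to 4.93%) carry no gene and were left out. The annotation release behind the counts is not given in the sources used here; symbols, positions and exon lengths came from GENCODE M21, which matched 46005 of 46517 identifiers, and *Ntn3* was not analysed here.

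Counts were tested with edgeR 4.0.16 in R 4.3.3 (filterByExpr by group, TMM, robust glmQLFit, glmQLFTest, two-sided, Benjamini-Hochberg over 15862 genes, threshold 0.05). Normalized counts are counts scaled by TMM to the geometric mean of the effective library sizes. The alternatives were DESeq2 1.42.0, limma-voom (limma 3.58.1), RLE, library size only, other count filters (no filter beyond 1 count, and at least 10 counts in every culture), a threshold of 0.01, down-sampling, a replicate block, and leaving out cultures. Ratios per kb used a pseudocount of 0.5. The fits were tested on simulated counts. Figures were drawn with matplotlib 3.10.9.

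The labels state no pairing, and the block rests on the data. Deviations from the group means correlated at 0.34, 0.684 and 0.572 for the same number (1, 2 and 3) and at -0.617 to 0.215 for different numbers. The highest of the latter was that of CTL replicate 1 with TGF-β1 replicate 3. Deviations within a group cancel out, so these correlations depend on each other. Totals on genes were 28313080 to 34183497 per library, and no pair of libraries agreed within sampling noise (chi-square per degree of freedom at least 9.82).

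Genes were named with values in every culture if past the threshold, if past it with the block only and without overlap of the groups, or if the most abundant per kb of their family. Members, partner genes and markers were chosen with earlier results of these data known. A few marker genes, and the sums of the lists that hold them, are not reported here.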

Additional observations from a re-analysis of the deposited data

How the results depend on the processing

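Counts of calls depended on the fit more than on the scaling. Against 3 higher and 11 lower guidance genes, the replicate block gave 18 and 20, and the block without the cultures numbered 1, 2 and 3 gave 8, 14 and 16 higher and 16, 19 and 20 lower. DESeq2 gave 9 higher, and a threshold of 0.01 left 1 higher and 3 lower. The shares of all genes under these 2 alternatives are not given here. With 1 culture removed, between 1 and 4 were higher and between 2 and 13 lower, and leaving out both cultures of a number gave 0 to 8 and 0 to 15, the 0 without replicate 1 and the highest without replicate 2. Against 5 higher and 3 lower partner genes, library size only gave 2 and 8, DESeq2 8 and 7, at least 10 counts in every culture 3 higher, the block 19 and 22, the block without 1 number 11, 20 and 18 higher and 13, 19 and 20 lower, and a threshold of 0.01 0 and 0. Without 1 culture the partners were 0 to 3 and 0 to 4, and without both cultures of a number 0 to 11 and 0 to 7.

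The 14 called genes kept direction and call under RLE, DESeq2, limma-voom, at least 10 counts in every culture, down-sampling and the block; library size only lost *Nrp2* and no filter beyond 1 count lost *Sema3c*. Library size only moved the median log2 fold change of all genes to -0.08. Of the 27 genes given in every culture by the naming rule, *Sema3f*, which passed in neither fit, and *Nrp1*, which passed with the block only, changed direction: *Sema3f* stood at -0.0242 with library size only, -0.00476 without replicate 1, -0.0102 with the block and without the cultures numbered 1, and -0.0414 to 0.145 over the fits without 1 culture (lowest without TGF-β1 replicate 1), and *Nrp1* stood at -0.00944 (without TGF-β1 replicate 2) to 0.299 over the fits without 1 culture. The block turned no called gene and added 24. The widest standard errors of the log2 fold change were 0.76 for *Sema3d*, 0.65 for *Unc5c* and 0.61 for *Epha1*, and 9 guidance genes had too few counts to pass the filter. The cause of these differences was not tested.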
